A study of Mus musculus with 24 samples.

Results

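Txnip and the other alpha-arrestins were followed in mouse macrophages during the first hours of stimulation with lipopolysaccharide (LPS, a bacterial ligand of Toll-like receptor 4). The 5 genes were Txnip, Arrdc1, Arrdc2, Arrdc3 and Arrdc4, of 24273 genes in the table, and each was found as 1 row by its symbol. Txnip and Arrdc3 were chosen by their log2 values after LPS, which were low against 0 h in both genotypes, and the others because they belong to the same family. The LPS changes of Txnip and Arrdc3 are therefore given as a description with no test. All 5 genes were among the 13901 genes that passed the filter on low values, which required 2 to the power of the value to reach 5 in at least 3 libraries.

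The libraries came from bone marrow-derived macrophages of C57BL/6 mice, grown for 7 days in L-cell-conditioned medium, kept overnight in 1% serum and then left at 0 h or given LPS at 100 ng/ml for 0.5, 1 or 2 h. The groups were LysM-Cre, the control, and FosKO, whose cells carried LysM-Cre with Fos-fl/fl, so by the design Cre was present in both. Cre was driven from the lysozyme locus, which is active in myeloid cells. The design text names the controls as LysM-Cre alone, while the study's text adds a single floxed allele of Fos, and which applied cannot be told apart here. There were 3 libraries in each of the 8 groups, which made 24. The study calls them biological replicates, but the labels do not name the animals, so the p-values measure the spread between these libraries.

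The values are the log2 values that the authors deposited after normalisation, and the depth of each library is unknown. The gene-level value of Fos was not lower in FosKO at 3 of the 4 times, since its mean log2 value was 11.11 in LysM-Cre and 12.60 in FosKO at 0 h, and 9.52 and 12.80 at 2 h, with 0.5 h the exception (13.52 and 12.75). In FosKO its mean stayed between 12.60 and 12.80 over the 4 times. Such a value can include RNA from outside the deleted part of the gene, whose extent is not given in the sources used here, so it does not check the labels. "FosKO" below means the libraries labelled FosKO. Lyz2, the locus of the Cre, stood at 10.94 in LysM-Cre and 16.10 in FosKO at 0 h, and at 11.26 and 16.32 at 2 h. The genotypes thus also differed in RNA from this locus, and did so at every time. In each genotype comparison this difference and the labelled deletion of Fos cannot be told apart. The part of this locus in the other differences was not tested, and the study's text does not give the number of Cre copies. The summed level of 6 other macrophage markers lay between 16.96 and 17.15 in all 24 libraries, but 3 of them separated the genotypes. Mertk stood between 9.07 and 9.98 in LysM-Cre and 10.66 and 10.99 in FosKO, Fcgr1 between 12.20 and 12.74 and 12.98 and 13.70, and Cd68 between 15.05 and 15.14 and 15.21 and 15.38. The neutrophil markers with a row summed to between 5.61 and 6.64 in LysM-Cre and between 5.02 and 5.74 in FosKO, with Ly6g and Elane near the bottom of the scale, and T cell, B cell, fibroblast and mast cell sums stayed at or below 5.34. The dendritic cell sum was 11.47 to 11.73 in LysM-Cre and 11.18 to 11.58 in FosKO, carried by Itgax, which macrophages express too, with Flt3 at or below 1.82. The part of these markers in the genotype differences was not tested. The 18S ribosomal RNA Rn18s-rs5 was low, between 16.65 and 17.00, in 5 libraries taken at 0.5 and 1 h, and between 18.57 and 19.39 in the other 19. In LysM-Cre the low libraries were replicate 3 at 0.5 h and replicates 2 and 3 at 1 h, and in FosKO replicate 1 at both times. Values within these sets are given beside the results at those times.

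Alpha-arrestins are cytosolic adaptors with an arrestin fold that bring ubiquitin ligases of the NEDD4 family to membrane proteins and so steer the uptake and sorting of receptors and transporters. Txnip binds reduced thioredoxin through a disulphide and limits glucose entry by promoting the uptake of glucose transporters. Its transcription is known to follow glucose through the factors MondoA (Mlxip) and ChREBP (Mlxipl), which pair with Mlx and bind carbohydrate response elements, and Arrdc4 is a known target of the same factors. Txnip messenger RNA is short-lived, and the protein has been linked to the NLRP3 inflammasome of macrophages.

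Promoter sequence is shown for Txnip, whose RNA was lowest at 1 h, for Arrdc3, whose RNA was lowest at 2 h, and for Arrdc4, whose RNA was highest at 2 h and, of the 5, differed most between the genotypes. Each line holds the 250 bases before the RefSeq transcription start (GRCm38.p6), read 5′ to 3′ on the strand of the gene. The Txnip window is chr3:96557707-96557956 on the plus strand, that of Arrdc3 is chr13:80883134-80883383 on the plus strand, and that of Arrdc4 is chr7:68749239-68749488 on the minus strand. Arrdc3 has 3 windows in the RefSeq table, and the one that abuts the start of the gene in GENCODE is shown. Capitals mark the matches to the motifs that were searched on both strands.
Txnip: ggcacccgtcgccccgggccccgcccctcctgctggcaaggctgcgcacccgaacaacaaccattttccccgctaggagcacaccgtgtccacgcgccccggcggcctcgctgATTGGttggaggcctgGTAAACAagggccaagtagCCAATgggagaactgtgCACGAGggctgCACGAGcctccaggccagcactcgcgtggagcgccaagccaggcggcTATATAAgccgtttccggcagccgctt
Arrdc3: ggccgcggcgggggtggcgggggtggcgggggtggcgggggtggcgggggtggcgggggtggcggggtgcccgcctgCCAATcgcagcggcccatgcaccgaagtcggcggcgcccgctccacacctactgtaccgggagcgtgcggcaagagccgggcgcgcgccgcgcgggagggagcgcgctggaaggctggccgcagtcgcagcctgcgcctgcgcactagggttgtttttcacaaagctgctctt
Arrdc4: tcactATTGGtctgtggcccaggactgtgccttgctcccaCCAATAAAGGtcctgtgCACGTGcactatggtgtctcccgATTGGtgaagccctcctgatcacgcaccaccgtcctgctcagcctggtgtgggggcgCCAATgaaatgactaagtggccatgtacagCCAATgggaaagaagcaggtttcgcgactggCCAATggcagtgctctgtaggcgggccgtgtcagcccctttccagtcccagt

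The Txnip window holds CACGAG at -85 to -80 and again at -74 to -69, counted from the transcription start, with 5 bases between them. Carbohydrate response elements are known as pairs of E-box-like hexamers 5 bases apart. A looser and a stricter general form of the element (5.97% and 0.454% of windows) matched in none of the 5 windows. Both forms end in TG, so neither could match this pair, whose second hexamer ends in AG. A single CACGAG occurred in 5.37% of 32851 promoter windows of the same length, with 2 matches in Arrdc1 and 1 in Arrdc2 as well. The pair at this spacing was searched with letters taken from the Txnip window, and the 1 window that holds it (0.00304%) is that of Txnip, so nothing is read from its rarity. CCAAT, the motif of the factor NF-Y, occurred in 33.8% of windows, with 2 matches in Txnip, 1 in Arrdc3, 6 in Arrdc4 and 3 in Arrdc2, and ATTGG is its reverse complement. Txnip also holds GTAAACA, a forkhead motif found in 3.17% of windows, at -121 to -115, and TATATAA, found in 3.04%, at -27 to -21. Arrdc4 holds the E-box CACGTG, found in 6.02% of windows, at -193 to -188, and a CArG box, the motif of serum response factor, at -210 to -201, which overlaps a CCAAT match and was found in 1.47%. The AP-1 motif TGANTCA (6.75% of windows) and the related TGACGTCA (1.55%) matched in none of the 5 windows, which says only that these letters are not there. The same held for TGACTCA (4.46%), TATAAA (12.4%) and GGGGTGGGG (5.61%), and a form of the NF-kB site (16.4%) matched 1 time, in Arrdc2.

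Txnip lies at chr3:96557957-96561883 on the plus strand of the mouse build mm10 (GRCm38). An antisense gene, Gm15441, spans it on the other strand, and its group means stood between 0.49 and 0.71 on the log2 scale, too low to be tested. The libraries were strand-specific by the study's methods. In LysM-Cre macrophages the 3 libraries read 12.66, 12.62 and 12.59 before LPS, 11.63, 11.51 and 11.51 after 0.5 h, 10.67, 10.66 and 10.51 after 1 h and 11.84, 11.90 and 11.79 after 2 h. In FosKO they read 12.26, 12.27 and 12.30 before LPS, 11.62, 11.53 and 11.75 after 0.5 h, 10.59, 10.66 and 10.64 after 1 h and 11.43, 11.50 and 11.58 after 2 h. Every library given LPS was thus below every 0 h library of its genotype, and the lowest values were those at 1 h.

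Relative to 0 h, Txnip in LysM-Cre stood at 47.4% after 0.5 h, 24.7% after 1 h and 58.1% after 2 h. On the log2 scale these are changes of -1.08, -2.02 and -0.78, each with an SE of 0.05 (n = 3 per group). In FosKO the levels were 63.9%, 31.9% and 58.4%, or -0.65, -1.65 and -0.78. The level had therefore moved back up between 1 and 2 h, with steps of 1.23 (LysM-Cre) and 0.87 (FosKO). The steps before that came to 1 halving per 27.9 min and then per 32 min in LysM-Cre, and per 46.5 min and then per 30 min in FosKO, if the change within each step was even.

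Counted from the lowest change among the 13901 tested genes, Txnip was at rank 20 at 0.5 h, 19 at 1 h and 711 at 2 h in LysM-Cre. In FosKO its ranks were 160, 12 and 800. The drop at 0.5 h was smaller in FosKO by 0.43 (SE 0.07) and at 1 h by 0.37 (SE 0.07), while at 2 h the responses differed by 0.01 (SE 0.07). These 3 differences share the 0 h libraries, in which the genotypes already differed. The changes were close within the 18S sets, where the LysM-Cre change at 1 h was -1.96 with high 18S (1 library) and -2.04 with low 18S (2 libraries), and the FosKO change was -1.63 (2 libraries) and -1.68 (1 library). At 0.5 h the changes were -1.06 and -1.12 in LysM-Cre and -0.64 and -0.65 in FosKO.

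**Figure D1:**
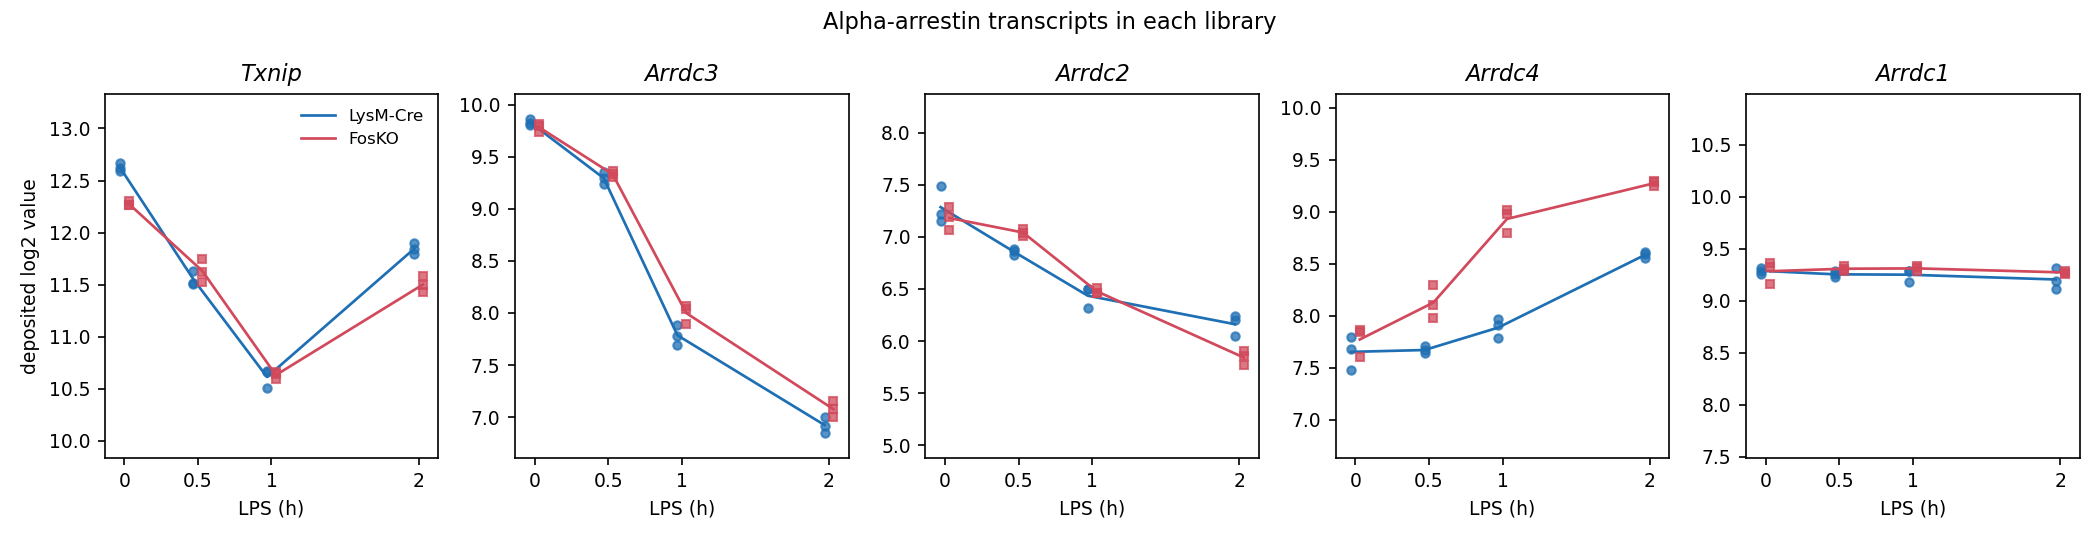
Deposited log2 value of each alpha-arrestin in each library (points, 3 per group) and the group mean (lines) against hours of LPS, LysM-Cre in blue circles and FosKO in red squares, with every panel spanning the same number of log2 units. Txnip is lowest at 1 h in both genotypes, Arrdc3 and Arrdc2 are lowest at 2 h, Arrdc4 is highest at 2 h, and Arrdc1 stays between 9.12 and 9.37.

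Arrdc3 (chr13:80883384-80896042, plus strand) is the alpha-arrestin known for steering the breakdown of integrin beta 4. A transcript on the other strand inside it, 1700023H06Rik, had group means between -1.20 and -1.13 and was not tested. The LysM-Cre libraries read 9.87, 9.80 and 9.82 before LPS, 9.35, 9.30 and 9.23 after 0.5 h, 7.78, 7.70 and 7.88 after 1 h and 6.85, 6.92 and 7.00 after 2 h. The FosKO libraries read 9.80, 9.74 and 9.82 before LPS, 9.36, 9.31 and 9.33 after 0.5 h, 8.07, 8.04 and 7.89 after 1 h and 7.00, 7.15 and 7.08 after 2 h. Unlike Txnip, Arrdc3 was lower at each later time and had not turned back at 2 h, and no library overlapped those of another time in its genotype.

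The level of Arrdc3 relative to 0 h was 68.9%, 24.2% and 13.3% in LysM-Cre at 0.5, 1 and 2 h, and 73.1%, 29.0% and 15.3% in FosKO. As log2 changes these were -0.54, -2.05 and -2.91 in LysM-Cre and -0.45, -1.78 and -2.71 in FosKO (SE 0.06). Its steepest step came between 0.5 and 1 h, by -1.51 in LysM-Cre and -1.33 in FosKO, which is 1 halving per 19.9 min and per 22.5 min. In rank among the tested genes it moved from 192 at 0.5 h to 17 at 1 h and 4 at 2 h in LysM-Cre, and from 305 to 6 and then 3 in FosKO. The FosKO change minus the LysM-Cre change was 0.09 at 0.5 h, 0.26 at 1 h and 0.20 at 2 h (SE 0.08), given as a description with no test. Within the 18S sets the changes at 1 h were -2.05 (high) and -2.04 (low) in LysM-Cre and -1.82 and -1.72 in FosKO, and at 0.5 h they were -0.51 and -0.60 in LysM-Cre and -0.46 and -0.42 in FosKO.

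Arrdc2 (chr8:70835129-70839720, minus strand) was chosen by its family and not for its response, so its LPS changes were tested. Earlier results of these data were known when the members were chosen. Its LysM-Cre libraries read 7.49, 7.15 and 7.22 before LPS, 6.82, 6.86 and 6.89 after 0.5 h, 6.31, 6.49 and 6.50 after 1 h and 6.20, 6.24 and 6.05 after 2 h. Its FosKO libraries read 7.20, 7.29 and 7.06 before LPS, 7.04, 7.01 and 7.08 after 0.5 h, 6.46, 6.46 and 6.51 after 1 h and 5.77, 5.86 and 5.90 after 2 h. In LysM-Cre every LPS library was below every 0 h library, whereas in FosKO the groups overlapped at 0.5 h and were apart at 1 and 2 h. Arrdc2 fell in LysM-Cre, with changes of -0.43 at 0.5 h (adjusted p = 0.00125), -0.85 at 1 h (adjusted p = 3.5e-08) and -1.12 at 2 h (adjusted p = 1.43e-10) and an SE of 0.08. In FosKO it changed by -0.70 at 1 h (adjusted p = 6.38e-07) and -1.34 at 2 h (adjusted p = 7.51e-12), and at 0.5 h its change was -0.14 (95% interval -0.31 to 0.03, adjusted p = 0.375).

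The responses of Arrdc2 in the genotypes were not shown to differ. The differences in response were 0.29 at 0.5 h (95% interval 0.05 to 0.53, adjusted p = 0.727), 0.15 at 1 h (-0.09 to 0.39, adjusted p = 0.896) and -0.22 at 2 h (-0.46 to 0.02, adjusted p = 0.24). With high and with low 18S, its changes at 1 h were -0.97 (high) and -0.79 (low) in LysM-Cre and -0.70 and -0.72 in FosKO, and at 0.5 h they were -0.45 and -0.40 in LysM-Cre and -0.14 in both sets of FosKO.

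Arrdc4 (chr7:68736995-68749241, minus strand) moved the other way. This family member is known, like Txnip, for limiting glucose uptake. Its LysM-Cre libraries read 7.80, 7.68 and 7.48 before LPS, 7.70, 7.67 and 7.64 after 0.5 h, 7.91, 7.96 and 7.78 after 1 h and 8.59, 8.61 and 8.55 after 2 h. Its FosKO libraries read 7.60, 7.87 and 7.85 before LPS, 7.98, 8.11 and 8.30 after 0.5 h, 8.80, 9.01 and 8.98 after 1 h and 9.25, 9.28 and 9.29 after 2 h. In FosKO the libraries were above those of 0 h at all 3 LPS times, and in LysM-Cre they cleared the 0 h libraries only at 2 h.

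In LysM-Cre, Arrdc4 rose by 0.93 at 2 h (SE 0.09, adjusted p = 6.2e-09), 1.91-fold, and its change at 0.5 h was 0.02 (adjusted p = 0.956). At 1 h it rose by 0.23 (adjusted p = 0.0395), a call that was lost with no filter on low values (adjusted p = 0.0614), with only the 2 groups in the fit (0.0675), with only the high-18S libraries (0.119) and without LysM-Cre replicate 2 (0.0621) or 3 (0.229) at 0 h or replicate 1 (0.0927) or 2 (0.144) at 1 h. In FosKO it rose by 0.35 at 0.5 h (adjusted p = 0.0136), by 1.16 at 1 h (adjusted p = 7.03e-10) and by 1.50 at 2 h (adjusted p = 2.81e-12), which is 1.28-fold, 2.23-fold and 2.83-fold. The call at 0.5 h was lost with only the 2 groups in the fit (adjusted p = 0.231), without FosKO replicate 1 at 0 h (0.0984) and without replicate 3 at 0.5 h (0.113). Within the 18S sets the FosKO changes were 0.43 (high) and 0.21 (low) after 0.5 h, then 1.23 (high) and 1.02 (low) after 1 h, whereas in LysM-Cre they were 0.03 and -0.01 after 0.5 h, then 0.26 and 0.22 after 1 h.

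The rise of Arrdc4 was larger in FosKO than in LysM-Cre by 0.92 at 1 h (SE 0.12, adjusted p = 0.000116) and by 0.57 at 2 h (SE 0.12, adjusted p = 0.0027), while at 0.5 h the difference was 0.34 (95% interval 0.08 to 0.59, adjusted p = 0.698). This comparison called 16 genes at 0.5 h, or 0.115% of those tested, 1.22% at 1 h and 15% at 2 h. Of the 3 members tested in it, Arrdc1, Arrdc2 and Arrdc4, the test called none at 0.5 h and only Arrdc4 at 1 and 2 h. Without adjustment p was 0.0118 for Arrdc4 and 0.0203 for Arrdc2 at 0.5 h, and 0.406 for Arrdc1.

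Arrdc1 (chr2:24925352-24935252, minus strand), which binds Tsg101 and is known for driving the budding of microvesicles from the cell surface, was nearly level. All 24 libraries lay between 9.12 and 9.37, with group means from 9.20 in LysM-Cre at 2 h to 9.31 in FosKO at 1 h. It was called in 0 of the 13 comparisons by limma, and no unadjusted p was under 0.05, the lowest being 0.0978. Its LPS changes lay between -0.08 at 2 h in LysM-Cre (95% interval -0.18 to 0.02) and 0.03 at 1 h in FosKO (-0.07 to 0.13). The change at 2 h in LysM-Cre was called after quantile normalisation (-0.13, adjusted p = 0.0236) and without LysM-Cre replicate 1 at 2 h (-0.14, adjusted p = 0.0188).

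Arrdc1, Arrdc2 and Arrdc4 can be read against all tested genes. In LysM-Cre 7.24%, 35.8% and 60.8% of all genes were called after 0.5, 1 and 2 h of LPS, and in FosKO 5.92%, 32.6% and 62.1%. Of these 3 members 1, 2 and 2 were called in LysM-Cre and 1, 2 and 2 in FosKO. By rank among the tested genes Arrdc2 was at 306, 369 and 263 from the lowest change in LysM-Cre and at 1814, 354 and 119 in FosKO, while Arrdc4 was at 5914, 1653 and 828 from the highest in LysM-Cre and at 421, 257 and 430 in FosKO.

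**Figure D2:**
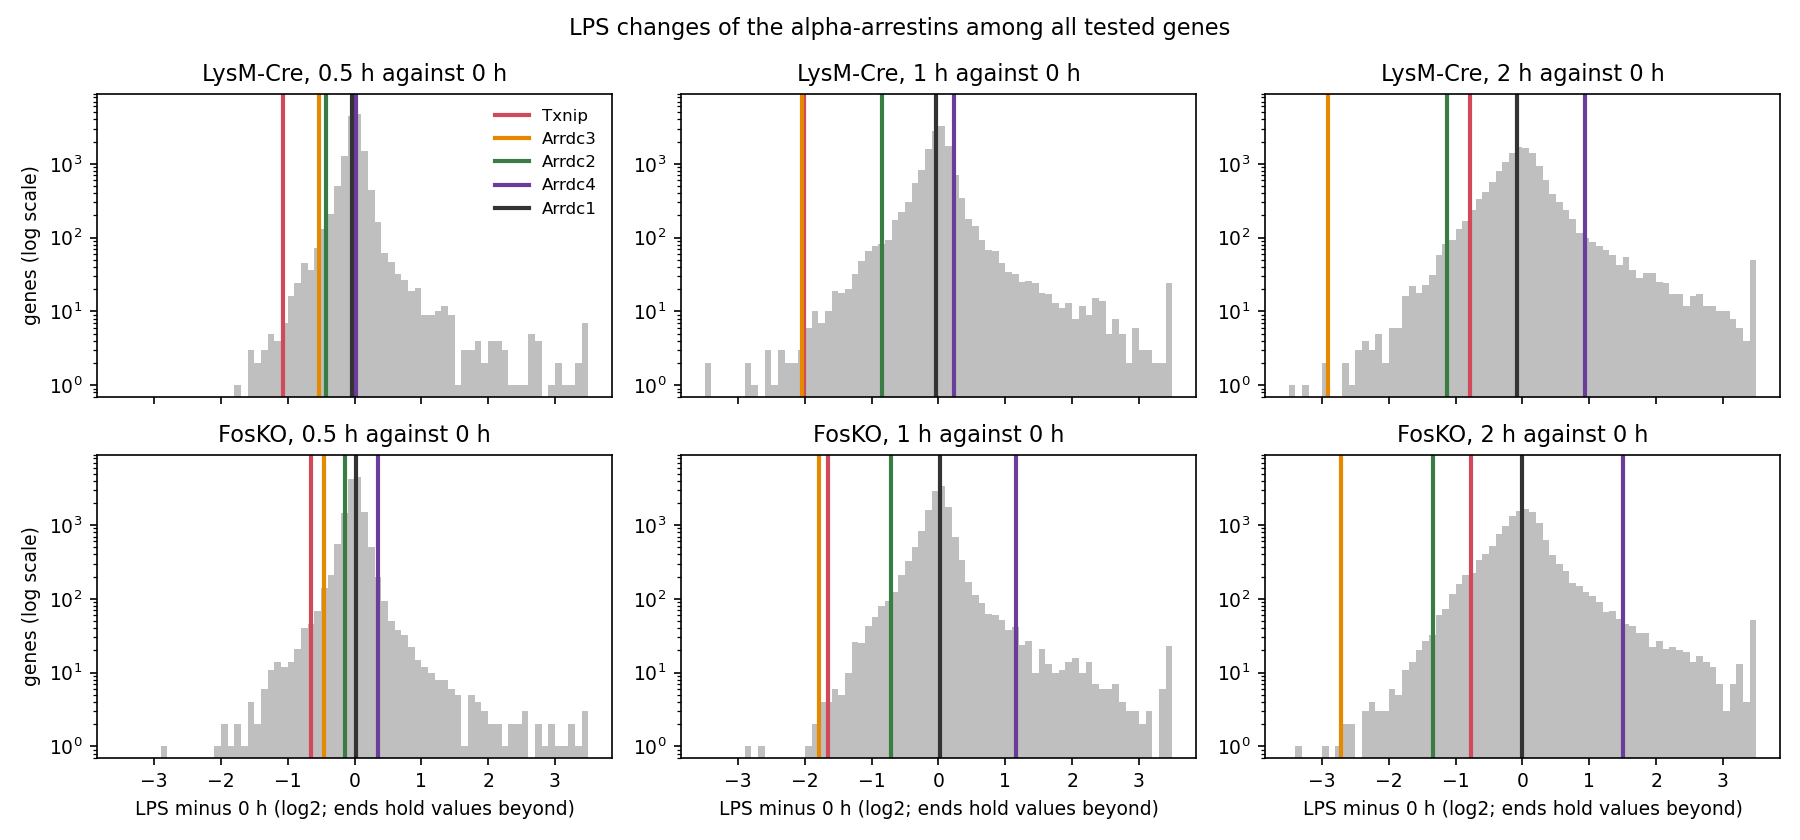
Histograms of the log2 change of all 13901 tested genes at 0.5, 1 and 2 h of LPS against 0 h (log count axis, end bins hold values beyond the axis), LysM-Cre above and FosKO below, with the 5 alpha-arrestins as coloured lines. Txnip and Arrdc3 sit in the lower tail at 1 h (-2.02 and -2.05 in LysM-Cre), Arrdc3 alone of the 5 goes on to -2.91 at 2 h, and Arrdc4 lies above the centre from 0.5 h in FosKO.

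The genotypes were then compared at each time, to ask how these genes differed where Fos was labelled as deleted. In bulk cultures fewer cells of a type and less RNA per cell cannot be told apart. Txnip was lower in FosKO at 0 h by 0.35 (SE 0.05, adjusted p = 2.13e-05), at 78.5% of its LysM-Cre level, and at 2 h by 0.34 (SE 0.05, adjusted p = 1.63e-05), at 78.8%. The groups did not overlap at either time. At 0.5 h the difference was 0.08 (95% interval -0.03 to 0.19, adjusted p = 0.232) and at 1 h 0.02 (-0.09 to 0.13, adjusted p = 0.827), with overlapping groups. Taken by 18S set, it was 0.07 (high) and 0.11 (low) at 0.5 h, and -0.02 and 0.01 at 1 h. The libraries compared here are, in both genotypes, among those by whose values against 0 h Txnip was chosen. The calls at 0 and 2 h are therefore not independent of that choice. Ordered by mean, Txnip was lowest in LysM-Cre and FosKO at 1 h, which overlapped, and then in FosKO at 2 h, LysM-Cre at 0.5 h and FosKO at 0.5 h, each overlapping the next. Above these stood LysM-Cre at 2 h, FosKO at 0 h and LysM-Cre at 0 h, each clear of the next.

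Arrdc4 was higher in FosKO by 0.46 at 0.5 h (SE 0.09, adjusted p = 0.000215), by 1.04 at 1 h (adjusted p = 1.1e-08) and by 0.69 at 2 h (adjusted p = 1.61e-06), or 1.37-fold, 2.06-fold and 1.61-fold. The groups did not overlap at these times. At 0 h the difference was 0.12 (95% interval -0.06 to 0.30, adjusted p = 0.31) and the groups overlapped. Within the 18S sets the difference was 0.51 (high) and 0.34 (low) at 0.5 h and 1.09 and 0.92 at 1 h.

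Arrdc3 was higher in FosKO at 1 h by 0.21 (SE 0.06, adjusted p = 0.00464), where the groups did not overlap, and at 2 h by 0.15 (adjusted p = 0.029), where they did. Both calls were weak, and the libraries they compare are among those for whose low values after LPS Arrdc3 was chosen, so they are not independent of that choice. That at 1 h was lost with only the 2 groups in the fit (adjusted p = 0.0603) and with only the high-18S libraries (0.111), and that at 2 h was lost with only the 2 groups in the fit (0.146), without LysM-Cre replicate 1 (0.139) or 2 (0.0657) and without FosKO replicate 2 (0.139) or 3 (0.0603). Split by 18S, the difference was 0.19 (high) and 0.28 (low) at 1 h, and -0.01 and 0.13 at 0.5 h. At 0 h it was -0.05 (adjusted p = 0.562) and at 0.5 h 0.04 (adjusted p = 0.627).

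Arrdc2 was lower in FosKO at 2 h by 0.32 (SE 0.08, adjusted p = 0.00299), with no overlap. At 0.5 h the groups did not overlap either, yet the difference of 0.19 missed the threshold (adjusted p = 0.0753) and was called only with the 2 groups alone in the fit (0.049) or once the 0 h library of LysM-Cre replicate 1 was left out (0.0394). The differences at 0 and 1 h were -0.10 (adjusted p = 0.354) and 0.04 (adjusted p = 0.73). Within the 18S sets it was 0.20 (high) and 0.15 (low) at 0.5 h and 0.17 and -0.03 at 1 h.

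Arrdc1 had differences of -0.0039, 0.05, 0.06 and 0.07 at the successive times, with 95% intervals that together reached from -0.10 to 0.17. Its groups did not overlap at 0.5 and 1 h, though they nearly touched and neither difference was called (adjusted p = 0.41 and 0.367). The highest LysM-Cre and the lowest FosKO library stood at 9.2839 and 9.28584 at 0.5 h, and at 9.28822 and 9.28826 at 1 h. Within the 18S sets the difference was 0.06 (high) and 0.03 (low) at 0.5 h and 0.04 and 0.05 at 1 h.

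Over the family the count of members called between the genotypes was 1, 1, 2 and 4 of 5 at 0, 0.5, 1 and 2 h, beside 35.4%, 40.9%, 33.9% and 44.6% of all tested genes. At 1 h it became 1 with only the 2 groups in the fit or with only the high-18S libraries, since Arrdc3 lost its call. The groups did not overlap in 1, 3, 3 and 3 members, beside 44.5%, 50.8%, 45% and 54% of all tested genes. With 5 members nothing is read from these shares. At 2 h Txnip and Arrdc2 were lower in FosKO and Arrdc3 and Arrdc4 higher.

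**Figure D3:**
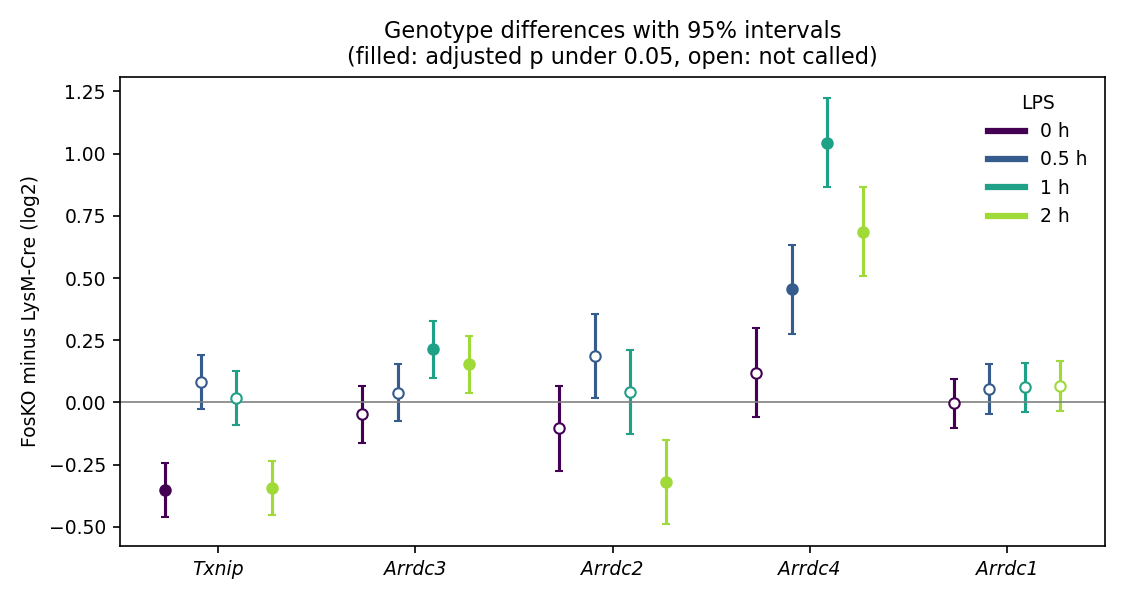
Difference between FosKO and LysM-Cre in log2 units (y axis) for each alpha-arrestin at 0, 0.5, 1 and 2 h of LPS, with 95% intervals from limma (3 libraries per group), filled where the adjusted p was under 0.05. Txnip is below 0 at 0 and 2 h, Arrdc4 peaks at 1.04 at 1 h, and all intervals of Arrdc1 include 0.

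The courses of the members were compared over the 24 libraries, which share 2 genotypes and 4 times and so are not independent. Arrdc2 and Arrdc3 ran together (Pearson's r = 0.96), Txnip followed each of them less closely (r = 0.53 with both), and Arrdc4 ran against Arrdc2 (r = -0.79) and Arrdc3 (r = -0.77). Arrdc1 had an r between -0.02 and 0.30 with the others. Among 10563 genes whose mean linear value reached 50, the genes most like Txnip were Zfp748 (r = 0.96), Cyb561d1 (r = 0.95), Zfp322a (r = 0.95), Zfp870 (r = 0.94) and Zfp553 (r = 0.94). Zfp870, for example, changed by -1.43 at 1 h and -0.15 at 2 h in LysM-Cre. The genes most like Arrdc3 were Rhov (r = 0.99), which encodes a small GTPase, Trim65, Zkscan3, Tmem18 and AI467606 (each r = 0.97). AI467606 (r = 0.98), Tmem18 and Ormdl3 (each r = 0.97) were most like Arrdc2, so AI467606 and Tmem18 stood near both. Nearest to Arrdc4 were Ch25h (r = 0.96), the cholesterol 25-hydroxylase, Arhgef3 (r = 0.95) and Ifnb1 (r = 0.95), which encodes interferon beta. Ch25h changed by 2.33 and Ifnb1 by 3.81 at 2 h in LysM-Cre, and by 3.19 and 6.72 in FosKO, where Ifnb1 stood higher than in LysM-Cre by 3.00 at 2 h. No gene came as close to Arrdc1, for which the nearest were Abhd4 (r = 0.75), Haghl (r = 0.70) and Tex264 (r = 0.69).

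Genes that act with the alpha-arrestins were taken from 6 lists of 63 genes, of which 53 were tested. The thioredoxin system, all of whose 16 genes were tested, includes the thioredoxin that Txnip binds. Txnrd1, the cytosolic thioredoxin reductase, rose in LysM-Cre by 1.24 at 1 h (adjusted p = 2.48e-16) and 1.45 at 2 h (adjusted p = 8.86e-18), and in FosKO by 1.20 and 1.45. Prdx5, a peroxiredoxin, rose by 0.87 at 2 h in LysM-Cre (adjusted p = 1.28e-10) and 0.84 in FosKO (adjusted p = 2.35e-10). In LysM-Cre 11 of the 16 passed the test after 1 h, 9 higher and 2 lower, beside 35.8% of all tested genes. After 2 h it was 12, with 11 higher and 1 lower, beside 60.8%, and a median change of 0.26 (0.07 after quantile normalisation) against -0.02 over all tested genes. In FosKO 13 were called at 2 h (12 higher, 1 lower), beside 62.1%. This lean to higher values depended on the scaling, since after quantile normalisation 5 were higher and 3 lower at 1 h and 6 and 4 at 2 h in LysM-Cre, and 5 and 4 at 2 h in FosKO. Between the genotypes Txnrd1 and Srxn1, which encodes sulfiredoxin, were lower in FosKO at all 4 times (Txnrd1 by 0.24 and Srxn1 by 0.35 after 2 h) and Prdx5 was higher (0.39 before LPS and 0.35 after 2 h), among 6, 7, 8 and 7 called genes at 0, 0.5, 1 and 2 h, of which 1, 2, 2 and 4 were higher (11, 5, 10 and 5 after quantile normalisation, with 2, 1, 1 and 1 higher), beside 35.4%, 40.9%, 33.9% and 44.6% of all tested genes.

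Of the glucose transporters and hexokinases 8 of 12 were tested. Slc2a1, the transporter GLUT1, whose uptake from the membrane Txnip promotes, rose in LysM-Cre by 0.73 at 1 h (adjusted p = 1.04e-10) and 0.88 at 2 h (adjusted p = 1.4e-12), and Hk2, a hexokinase, rose by 0.98 at 2 h (adjusted p = 2.44e-12). Slc2a6, a transporter of the same family, rose by 1.18 and 2.11. The same 3 genes rose in FosKO at 2 h, by 1.03, 1.10 and 1.81. At 2 h 6 of the 8 were called in LysM-Cre (4 higher, 2 lower) and 5 in FosKO (all 5 higher), near the 60.8% and 62.1% of all tested genes, and after quantile normalisation 5 (3 higher, 2 lower) and 4 (3 higher, 1 lower). Between the genotypes 7, 7, 6 and 5 of the 8 were called at 0, 0.5, 1 and 2 h, against a background of 35.4%, 40.9%, 33.9% and 44.6%, and 3, 3, 3 and 4 of them were higher in FosKO (3 at each time after quantile normalisation). Slc2a3 (GLUT3) differed by -0.94, -1.04, -0.94 and -0.74 in FosKO at these times (adjusted p = 8.85e-07, 1.55e-07, 8.03e-07 and 8.53e-06). Hk3, the hexokinase of myeloid cells, was higher by 0.57, 0.67, 0.58 and 0.68.

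Among other binding partners 7 of 8 were tested. Nlrp3, the sensor of the inflammasome, rose by 1.07, 2.89 and 2.59 at 0.5, 1 and 2 h in LysM-Cre (adjusted p = 8.65e-11, 1.04e-18 and 3.11e-18) and by 0.81, 2.72 and 2.72 in FosKO. Map3k5, the kinase ASK1 that thioredoxin holds inactive, rose by 1.25 in LysM-Cre and 1.60 in FosKO at 2 h, and it was lower in FosKO by 0.43 at 0 h. It was also called lower in FosKO at 0.5 and 1 h. Leaving out 1 library at a time, these differences ranged from -0.59 to -0.49 and from -0.48 to -0.43. At 2 h 6 of the 7 were called in LysM-Cre (4 higher, 2 lower) and all 7 in FosKO (5 higher, 2 lower), where 60.8% and 62.1% of all tested genes were called. After quantile normalisation these counts were 5 (3 higher, 2 lower) and 6 (3 higher, 3 lower). Between the genotypes 3, 3, 2 and 4 of the 7 were called at 0, 0.5, 1 and 2 h (3, 4, 3 and 3 after quantile normalisation), of which 2, 2, 1 and 3 were higher in FosKO (2, 2, 1 and 1), near the 35.4%, 40.9%, 33.9% and 44.6% of all tested genes. Slc11a2 was higher by 0.46, 0.55 and 0.42 at 0, 0.5 and 1 h, and Ddit4 by 0.39 at 0 h and 0.65 at 0.5 h but lower by 0.45 at 2 h.

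**Figure D4:**
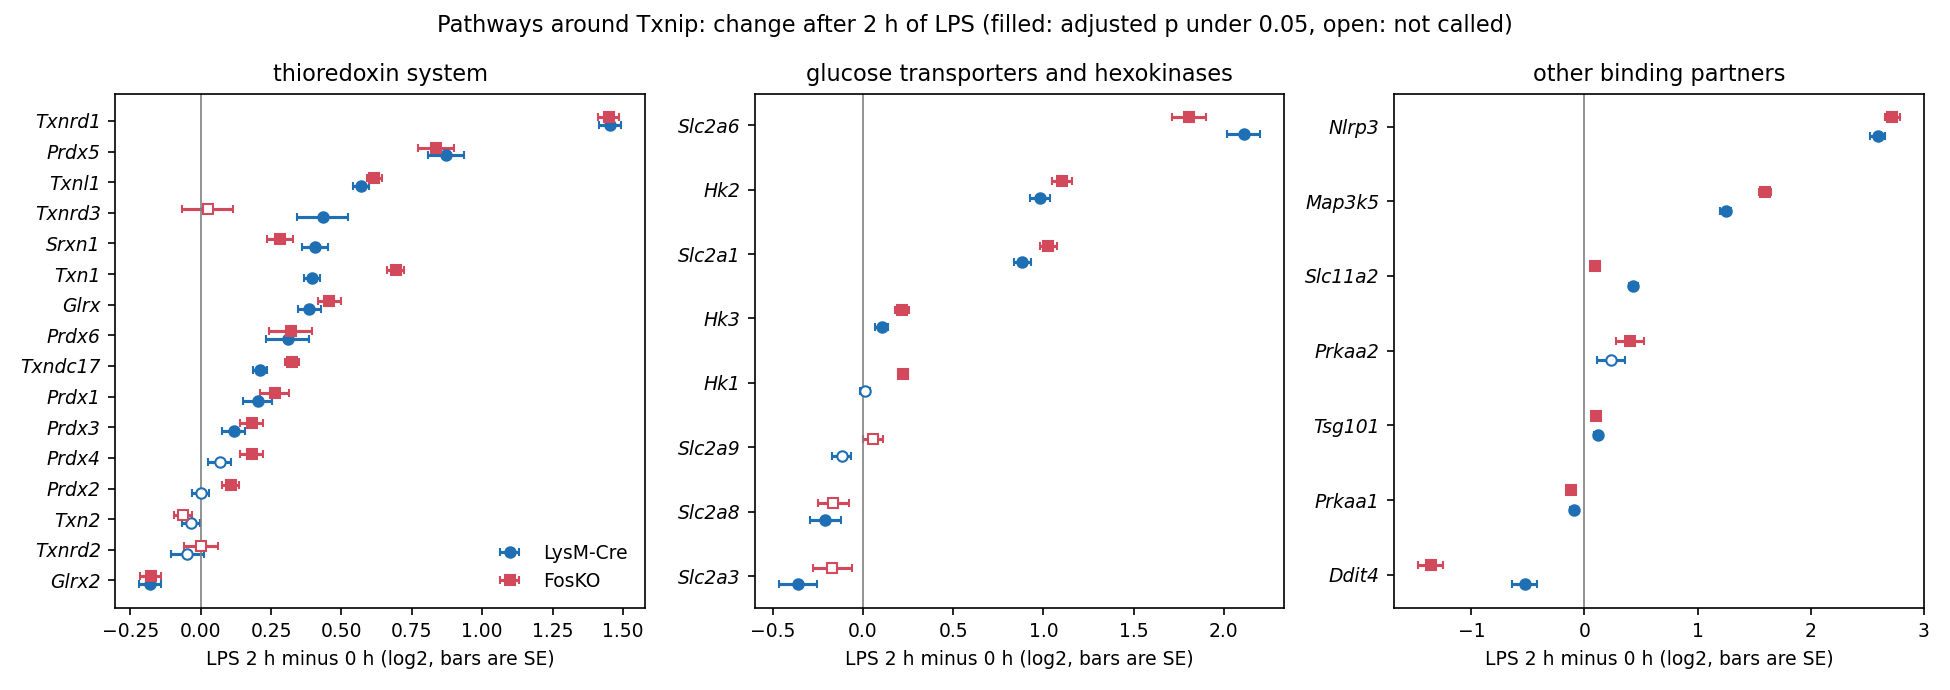
Log2 change after 2 h of LPS (x axis, bars are SE) of the tested genes of the thioredoxin system, of the glucose transporters and hexokinases, and of other binding partners, LysM-Cre in blue circles and FosKO in red squares, filled where the adjusted p was under 0.05. Txnrd1, Slc2a6 and Nlrp3 have the highest change of their panels in LysM-Cre (1.45, 2.11 and 2.59).

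Of the regulators of Txnip 7 of 8 were tested, Mlxipl being too low. Mlxip, which encodes MondoA, differed from 0 h by -0.09 at 1 h (adjusted p = 0.126) and 0.17 at 2 h (adjusted p = 0.00314) in LysM-Cre, and by -0.13 (adjusted p = 0.0291) and 0.20 (adjusted p = 0.000789) in FosKO. Its partner Mlx differed by 0.05 (adjusted p = 0.179) and 0.07 (adjusted p = 0.0336) in LysM-Cre and by -0.08 at both times in FosKO (adjusted p = 0.0454 and 0.0172). After quantile normalisation neither was called higher at 2 h in either genotype. Foxo3, a forkhead factor, fell, with changes of -0.44 at 1 h (adjusted p = 1.24e-06) and -1.84 at 2 h (adjusted p = 4.97e-17) in LysM-Cre and of -0.35 and -1.96 in FosKO. In LysM-Cre limma called 0 regulators at 0.5 h (1, Nr3c1, at an unadjusted p under 0.05, with adjusted p = 0.219), 3 at 1 h (2 higher, 1 lower, but 0 and 2 after quantile normalisation) and 5 at 2 h (3 higher, 2 lower, but 4 lower and 0 higher after quantile normalisation). The background was 7.24%, 35.8% and 60.8%. In FosKO 1 was called at 0.5 h (Srebf1, lost in 17 of 24 fits that leave out 1 library, with adjusted p up to 0.148, and under 6 other alternatives), 6 of the 7 at 1 h (2 higher, 4 lower, but 0 and 3 after quantile normalisation) and 5 at 2 h (2 higher, 3 lower, but 1 and 4), with a background of 5.92%, 32.6% and 62.1%. Between the genotypes 2, 3, 3 and 3 of the 7 were called at 0, 0.5, 1 and 2 h (2, 3, 1 and 2 after quantile normalisation), with 1, 1, 2 and 2 higher in FosKO (1, 1, 0 and 1), near the genotype background of 35.4%, 40.9%, 33.9% and 44.6%. Mlx was higher by 0.20 at 0 h (adjusted p = 1.06e-05), and Nr3c1, the glucocorticoid receptor, by 0.41 at 2 h (adjusted p = 1.45e-07). Srebf1, a factor of lipid synthesis, was lower by 0.17, 0.11, 0.15 and 0.16 (adjusted p = 0.00185, 0.0334, 0.00546 and 0.0019), though its call at 0.5 h was lost in 4 of 24 fits that leave out 1 library (adjusted p up to 0.177) and those at 0.5 and 1 h with only the high-18S libraries. Foxo1 was lower at 0.5 h by 0.22 (adjusted p = 0.0168), a call lost in 1 of those 24 fits (0.0889) and with only the high-18S libraries. Among the genotype calls at 1 h, that of Nr3c1 was lost in 16 of those fits (adjusted p up to 0.223). That of Mlx at 1 h was lost in 6 (up to 0.171), and that of Mlxip at 2 h in 3 (up to 0.0691).

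Of the NEDD4-family ligases and adaptors 10 of 11 were tested. At 2 h Smurf1 rose by 0.64 (adjusted p = 7.53e-11) and Smurf2 by 0.34 (adjusted p = 4.26e-08) in LysM-Cre, among 5 called genes (4 higher, 1 lower, but 2 and 4 after quantile normalisation), a share below the 60.8% of all tested genes. The lower one, Hecw2 (-0.36, adjusted p = 0.0482), lost its call in 15 of the 24 fits that leave out 1 library (adjusted p up to 0.239, without LysM-Cre replicate 1 at 0 h) and under 7 other alternatives. Its LysM-Cre means, 2.77 at 0 h and 2.41 at 2 h, were close to the limit of the filter on low values. Between the genotypes 2, 3, 2 and 4 of the 10 were called at 0, 0.5, 1 and 2 h (4, 4, 3 and 4 after quantile normalisation), of which 1, 2, 1 and 3 were higher in FosKO (1, 2, 1 and 0), beside the same background of 35.4%, 40.9%, 33.9% and 44.6%. Nedd4l was higher at all 4 times, by 0.33 at 0 h and 0.19 at 2 h (a call lost after quantile normalisation), and Wwp1 was lower by 0.24, 0.31 and 0.32 at 0, 0.5 and 1 h (adjusted p = 0.00469, 0.000376 and 4e-04). Of the other proteins with an arrestin fold 5 of 8 were tested, and at 2 h in LysM-Cre all 5 were called (1 higher, 4 lower, but 0 and 4 after quantile normalisation), beside 60.8% of all tested genes, Arrb1, a beta-arrestin, falling by 0.50 (adjusted p = 3.03e-10) and Vps26b, a retromer subunit, by 0.53 (adjusted p = 7.45e-12). The call of Sag, the retinal arrestin (adjusted p = 0.0404), was lost without LysM-Cre replicate 2 or 3 at 0 h or replicate 3 at 2 h (adjusted p up to 0.193). It was also lost under 4 other alternatives, and the LysM-Cre means of Sag were low (3.43 at 0 h and 3.18 at 2 h). Vps26a (0.08, adjusted p = 0.0315), the 1 called higher, was not called higher after quantile normalisation. The other alternatives were not run for that value. In FosKO 3 of the 5 were called at 2 h, all lower (4 lower after quantile normalisation), beside 62.1%. Arrb1 was lower in FosKO at all 4 times, by 0.26 at 0 h and 0.18 at 2 h, and Vps26a, another retromer subunit, was higher by 0.15 at 0 h (adjusted p = 0.000821), 0.15 at 0.5 h (adjusted p = 0.000878) and 0.10 at 2 h (adjusted p = 0.0165), the last turning to -0.037 after quantile normalisation. Over the 53 genes together 22, 25, 22 and 25 were called between the genotypes at 0, 0.5, 1 and 2 h, beside 35.4%, 40.9%, 33.9% and 44.6% of all tested genes.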

How the data were processed

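RNA sequencing of 24 macrophage libraries was analysed from 1 table of normalised log2 values that the authors deposited, 1 value per gene and library. By the methods and the submitters' processing notes the authors sequenced single-end, strand-specific TruSeq libraries and mapped and counted them with STAR 2.5.2a and RSEM 1.2.31 on the mouse build mm10. The authors normalised with DESeq2 1.16.1 by these notes, while the methods name another version. The log transform is not given in the sources used here. If it is a regularised log, changes of genes with few reads are understated. Depth per library is unknown, so no counting interval was computed.

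Values were used as deposited. Genes with 2 to the power of the value of at least 5 in at least 3 libraries (13901) entered one limma fit (limma 3.58.1, R 4.3.3) with 8 group means, 16 residual degrees of freedom and a variance trend. From it 13 comparisons were drawn, FosKO against LysM-Cre at 4 times, 6 LPS times against 0 h within a genotype, and 3 differences in response. P-values were two-sided and adjusted by the Benjamini-Hochberg method over all tested genes, 0.05 being the threshold for a call. With 3 libraries against 3 an exact permutation test cannot go below 0.1, so none was used. The fit was tested on simulated data. The design had allowed for linear values with a pseudocount, which log2 values did not need.

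The members and the gene lists were chosen with earlier results of these data known. The genes named are the 5 members, the 5 genes most correlated with Txnip and with Arrdc3, the 3 most correlated with each other member (mean linear value of 50 or more), and up to 3 called genes with the largest change per list and comparison. A gene of the lists is not reported here. The LPS values of Mlxip and Mlx at 1 and 2 h were added for their roles after they were seen. Promoter windows came from RefSeq (5 of 5 members matched), gene positions from GENCODE. Same-numbered libraries were checked for pairing by correlating their deviations from the group means over genes. In 9 of 10 pairs of groups not every r was over 0.1, and only FosKO at 0 and 0.5 h passed (0.19, 0.13 and 0.27), and the replicate block was run as an alternative for all groups. Alternatives were quantile normalisation, no or a stricter filter, pseudocounts of 1 and 8, no variance trend, the replicate block, only the groups compared, a term for 18S, only the high-18S libraries, and leaving out each library.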

Additional observations from a re-analysis of the deposited data

Results flagged for a closer look

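These results drew attention because the genotypes differed in their LPS response by a test of the difference itself (limma interaction, FosKO minus LysM-Cre, log2, 3 libraries per group). Arrdc4 differed by 0.92 at 1 h and by 0.57 at 2 h, rising in both genotypes and more in FosKO. The others came from the pathway lists at 2 h. Txn1, the cytosolic thioredoxin to which Txnip binds, rose by 0.40 in LysM-Cre and 0.69 in FosKO, a difference of 0.30 (adjusted p = 3.22e-05). Ddit4, a stress-induced inhibitor of mTORC1, fell, with changes of -0.53 (LysM-Cre) and -1.36 (FosKO), a difference of -0.83 (adjusted p = 0.000806). Map3k5 rose more in FosKO by 0.35 (adjusted p = 0.00162). The differences were 0.32 for Nr3c1 (adjusted p = 0.000945), 0.21 for Hk1 (adjusted p = 9e-04) and 0.11 for Txndc17 (adjusted p = 0.0292). They were -0.15 for Mlx (adjusted p = 0.0122), -0.41 for Txnrd3 (adjusted p = 0.0344) and -0.33 for Slc11a2, an iron transporter (adjusted p = 0.000253). Among the 53 list genes these 9 were called at 2 h, against 15% of all tested genes. The call of Mlx was lost with only the groups compared in the fit. Leaving out 1 library at a time, adjusted p ranged from 0.00387 to 0.0933 for Txndc17, whose call was lost in 7 of 24 such fits, and from 0.0184 to 0.103 for Txnrd3, whose call was lost in 8. Both also lost their call without the filter on low values, and Txndc17 after quantile normalisation, without the trend, with only the groups compared in the fit and with only the high-18S libraries. The other 6 genes kept their call in these fits. Each of these differences rests on the same 0 h libraries as the genotype comparison at 0 h.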

How the results depend on the processing

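The count of members called between the genotypes stayed at 1 at 0 h under every alternative run, and at 2 h it was 4 or, where Arrdc3 lost its call, 3. With only the 2 groups compared in the fit it became 2 at 0.5 h and 1 at 1 h, and with only the high-18S libraries 1 at 1 h. Leaving out 1 library at a time gave 1 to 2 at 0.5 h, the 2 coming without LysM-Cre replicate 1 at 0 h. Of the differences of single members between alternatives, 2212 kept their direction and their side of the threshold, 17 lost a call and 4 gained one, all named beside the results, 9 untested ones moved by more than the spread and 13 changed sign, all of them small and not called. After quantile normalisation the genotype difference of Txnip at 1 h was -0.024, and with only the high-18S libraries it was -0.019 and that of Arrdc3 at 0.5 h -0.0052. Leaving out 1 library at a time, the Txnip difference at 1 h ranged from -0.034 to 0.046 and that of Arrdc2 from -0.018 to 0.074, that of Arrdc1 at 0 h from -0.045 to 0.056, the FosKO changes of Arrdc1 from -0.036 to 0.065 at 0.5 h, -0.033 to 0.068 at 1 h and -0.072 to 0.029 at 2 h, its difference in response at 0.5 h from -0.0023 to 0.099, and the LysM-Cre change of Arrdc4 at 0.5 h from -0.069 to 0.089. Quantile normalisation made the drop of Txnip larger (-1.20, -2.23 and -1.10 in LysM-Cre) and moved the share of higher calls among all genes from 70.3% to 48.3%, 53.8% to 37.6% and 50.3% to 40.0% for LPS in LysM-Cre, 75.2% to 50.3%, 54.0% to 35.3% and 52.5% to 39.2% in FosKO, and 54.6% to 43.0% between the genotypes at 2 h, with a shift of the median of at most -0.07. Alternatives were run for the 151 list values that the naming rule picked, while the other list genes entered only the counts after quantile normalisation. Under them 4970 values kept their direction and their side of the threshold and 244 lost a call. Quantile normalisation turned the sign of 5 of the 151, Vps26a between the genotypes at 2 h (-0.037) and in LysM-Cre at 1 h (-0.091), Nr3c1 in LysM-Cre at 1 h (-0.034) and 2 h (-0.086), and Wwp2 in FosKO at 1 h (-0.0030). The cause was not tested. With the replicate number as a block, Txnip differed between the genotypes by -0.35 at 0 h (adjusted p = 4.77e-05) and -0.34 at 2 h (adjusted p = 3.93e-05), and no call of a member changed, while of the list genes Hecw2 in LysM-Cre at 2 h lost its call. The calls of Txnip, which include the 1 at 0 h, are under every alternative not independent of the choice of Txnip. Without counts, depth sets no limit that can be stated.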
